A study of Mus musculus with 8 samples.

Results

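Microtubules are hollow polymers of alpha and beta tubulin dimers. Mammals carry several genes for each, and the isotypes they encode differ mainly in their acidic tails and in the tissues that use them. TPPP proteins bind microtubules and promote their polymerization, and TPPP itself is best known from oligodendrocytes. EML proteins are microtubule-associated proteins with WD repeats, and human EML4 is known as the fusion partner of ALK in lung cancer. The genes described here are 2 TPPP genes (Tppp and Tppp3), 2 EML genes (Eml1 and Eml4), the alpha tubulin gene Tuba1a and 5 beta tubulin genes (Tubb2a, Tubb2b, Tubb3, Tubb5 and Tubb6). They were taken by gene symbol from the platform annotation, and all 10 were found, on 26 of the 33709 array features with a listed gene. These features stand for 10 of 19087 genes. The genes were chosen by name, around some whose lymphoma against wild type difference was already known to be wide. Their values in that comparison are therefore given as a description, with no test, and support nothing.

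PolyA RNA of splenic B cells, labelled B splenocytes, was measured. One group was 4 C57BL/6 mice with lymphoma labelled c-myc/Cdk4(R24C), in which c-myc is combined with the R24C form of the cell cycle kinase Cdk4, and the other was 4 wt C57BL/6 mice, here called wild type. Each mouse gave 1 array hybridized with 0.5 µg of Cy3-labelled RNA, and this number of arrays limits the precision. The promoter that drives c-myc, the age of the mice and the purity of the cells were not known here. Slide 1 carried lymphoma 1 and 2 and wild type 1 and 2, and slide 2 carried lymphoma 3 and 4 and wild type 3 and 4. On both slides the wild type arrays were at positions 1 and 2 and the lymphoma arrays at positions 3 and 4. Group and position on the slide therefore cannot be told apart, also with the slide as a block. All values below are log2 intensities scaled to the 75th percentile of the array, and levels of different features are not comparable. A feature was taken as at background on an array where it did not exceed the 95th percentile of olfactory and vomeronasal receptor features there, a bound between 7.17 and 7.45.

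The array of wild type 1 lay closer to the lymphoma arrays than to the other controls. Its mean correlation across features, which are not independent replicates, was 0.963 with lymphoma 1 to 4 and 0.941 with wild type 2 to 4. Values without it are given beside the results on Tppp, Tppp3, Eml1, Tubb6 and Tubb3. On their brightest features the other genes differed without it by 1.08 (Tubb2a), 1.03 (Tubb2b), 0.22 (Tubb5), -0.52 (Tuba1a) and -0.10 (Eml4). Of 8 B cell markers 7 were measured, all above background on all 8 arrays, and 0 passed the test between the groups. Of these, Cd79b, Ms4a1 and Cd74 reached at least 80% of the highest intensity of the array on 7, 5 and 6 arrays, and Cd22 differed by -1.03 (adjusted p 0.0854 in limma, and 0.0410 with the slide as a block). Of 9 measured macrophage and monocyte markers 6 were lower in lymphoma and 0 higher in limma (adjusted p under 0.05), among them Mpeg1, the pore-forming protein of macrophages, with a log2 difference of -1.55 and an adjusted p of 0.00802. The summed intensity of that list was between 15699 and 24749 on lymphoma arrays and between 36491 and 64436 on wild type arrays. Without wild type 1 the counts were again 6 lower and 0 higher. Of 9 T and NK cell markers 0 passed, and without wild type 1 Cd8b1, a CD8 chain, was higher by 3.88 (adjusted p 3.29e-05 in limma), with 11.70, 12.88, 12.44 and 12.17 in lymphoma 1 to 4, against 13.27, 8.41, 8.59 and 8.26 in wild type 1 to 4. Of 7 erythroid markers 0 passed, and without wild type 1 Hba-a1, an alpha globin, and Alas2, an enzyme of heme synthesis, differed by -2.01 and -1.31 (adjusted p 0.0212 and 0.0159 in limma). Of 6 megakaryocyte and platelet and 10 stromal and endothelial markers 0 passed in either fit. The part of these markers in the results below was not tested. In such bulk RNA, fewer cells of a type and less RNA per cell cannot be told apart.

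Of the 10 genes, 7 matched a table of promoters from RefSeq (build GRCm38.p6), with 12 windows among them because Eml1 has 5 listed starts and Eml4 has 2. Tppp3, Tubb2b and Tubb6 had no entry. The 250 bases before the start were searched on both strands for CACGTG, the E-box that MYC and MAX bind, for CCAAT and for GGGCGG, the core of a GC box. The windows of Tppp, Eml1, Tubb2a and Tubb3 are shown because each of these genes had at least 1 feature whose lymphoma values all lay above the wild type values. Those of Tubb5 and Eml4 are shown because they had no such feature and their windows held an E-box. Tuba1a had no such feature and no E-box, and its window is not shown. The choice rests on the group difference and on the motif, so nothing is read from the windows shown. They run 5′ to 3′ and end at the base before the start. The motifs are in capitals.
Tppp: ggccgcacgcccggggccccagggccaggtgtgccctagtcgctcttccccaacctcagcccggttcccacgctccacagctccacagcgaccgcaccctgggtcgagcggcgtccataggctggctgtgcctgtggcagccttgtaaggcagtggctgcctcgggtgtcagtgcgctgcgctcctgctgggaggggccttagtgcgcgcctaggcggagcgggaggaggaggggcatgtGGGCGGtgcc
Eml1, first listed start: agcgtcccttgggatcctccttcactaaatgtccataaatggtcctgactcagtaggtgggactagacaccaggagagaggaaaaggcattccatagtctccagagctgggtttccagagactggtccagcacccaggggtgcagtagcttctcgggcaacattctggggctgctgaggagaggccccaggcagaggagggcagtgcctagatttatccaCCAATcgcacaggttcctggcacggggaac
Tubb2a: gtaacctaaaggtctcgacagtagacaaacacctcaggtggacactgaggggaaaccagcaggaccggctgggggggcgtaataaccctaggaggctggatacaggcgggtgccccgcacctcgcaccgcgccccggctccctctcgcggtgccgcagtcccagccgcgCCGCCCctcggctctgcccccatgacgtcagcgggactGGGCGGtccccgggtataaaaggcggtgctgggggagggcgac
Tubb3: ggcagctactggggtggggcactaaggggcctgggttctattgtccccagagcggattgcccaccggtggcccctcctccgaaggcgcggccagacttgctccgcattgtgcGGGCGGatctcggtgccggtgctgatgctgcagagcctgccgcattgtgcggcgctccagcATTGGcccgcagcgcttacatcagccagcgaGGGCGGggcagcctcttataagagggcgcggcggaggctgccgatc
Tubb5: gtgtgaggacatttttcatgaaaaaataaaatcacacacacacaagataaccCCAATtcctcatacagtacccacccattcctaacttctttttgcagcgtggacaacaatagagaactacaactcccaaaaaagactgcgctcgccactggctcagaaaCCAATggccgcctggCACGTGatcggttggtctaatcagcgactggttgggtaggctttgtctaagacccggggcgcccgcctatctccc
Eml4, first listed start: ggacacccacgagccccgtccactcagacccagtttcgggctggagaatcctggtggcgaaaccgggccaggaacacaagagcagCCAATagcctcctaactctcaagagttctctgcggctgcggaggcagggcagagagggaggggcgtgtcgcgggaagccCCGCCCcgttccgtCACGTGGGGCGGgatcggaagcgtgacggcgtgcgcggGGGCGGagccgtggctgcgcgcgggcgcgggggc
The Tppp window is chr13:74009169-74009418 on the plus strand. The Eml1 window is chr12:108370903-108371152 on the plus strand. The Tubb2a window is chr13:34078009-34078258 on the minus strand and that of Tubb3 is chr8:123411303-123411552 on the plus strand. The window of Tubb5 is chr17:35838302-35838551 on the minus strand and that of Eml4 is chr17:83350681-83350930 on the plus strand. The E-box was in 3 of the 12 windows, those of Tubb5, 75 bases before the start, and of both Eml4 starts, and it was in 6.02% of all 32851 windows of this length. In Eml4 the E-box runs directly into a GC box, so that their capitals join. No window of Tppp, Eml1, Tubb2a, Tubb3 or Tuba1a held an E-box. The CCAAT motif was in 7 of the 12 windows, against 33.8% of all windows, and GGGCGG was in 6, against 32.7%. The Tppp window held 1 GC box, starting 10 bases before the start. The windows of 1 gene overlap in part and are not independent, and a match is only a match of letters.

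Tppp and Tppp3, the TPPP genes, were much brighter in lymphoma. Tppp had 11.41, 11.38, 11.37 and 10.95 in lymphoma 1 to 4, against 10.22, 6.40, 6.95 and 7.16 in wild type 1 to 4. The groups did not overlap, but wild type 1 stood far above the other controls, which were all at background. Tppp averaged 11.28 ± 0.22 in lymphoma and 7.68 ± 1.72 in wild type (SD, n = 4 each), a log2 difference of 3.60 ± 0.65 (SE) in the values as read. With the 3 controls at background held at their bound, Tppp was at least 9.41-fold higher in lymphoma, and at least 15.6-fold higher without wild type 1.

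Tppp3, a second member of the family that is known as a marker of multiciliated and of tendon sheath cells, had 12.08, 12.09, 13.16 and 12.58 in lymphoma 1 to 4, against 10.82, 6.36, 7.63 and 7.90 in wild type 1 to 4. Again every lymphoma value was above every wild type value, and wild type 1 was the brightest control. Only wild type 2 was at background. Tppp3 averaged 12.48 ± 0.51 in lymphoma and 8.18 ± 1.89 in wild type (SD, n = 4 each), with a log2 difference of 4.30 ± 0.72 (SE) in the values as read. With wild type 2 held at its bound, Tppp3 was at least 16.3-fold higher in lymphoma, and at least 28.2-fold higher without wild type 1. Of 10 ciliated cell markers measured, 7 were at background on all 8 arrays and 0 passed the test, with 1 higher without wild type 1. Foxj1, the master regulator of motile cilia, was at background on all 4 lymphoma arrays. It is 1 gene picked from this list, and the marker that was higher without wild type 1 is not named here. The part of ciliated cells in the Tppp3 values was not tested. The summed intensity of the list was between 1072 and 1254 in lymphoma and between 997 and 1163 in wild type.

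**Figure D1:**
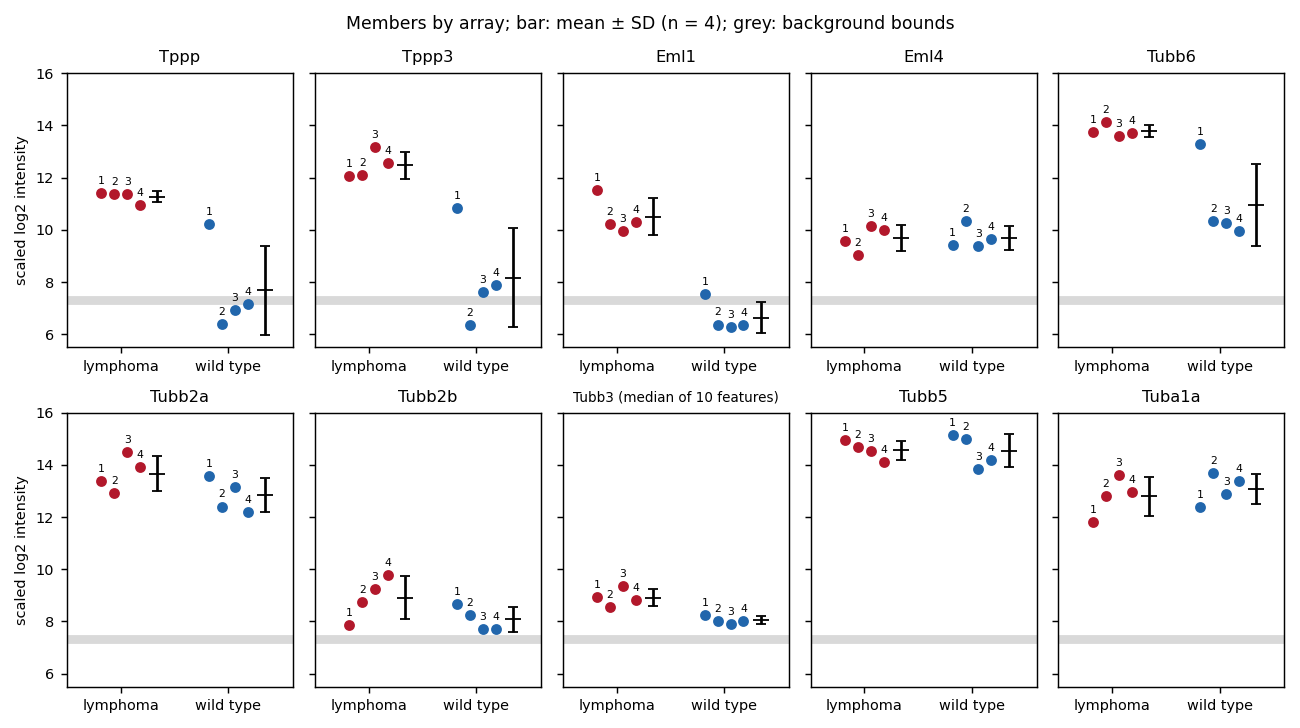
Scaled log2 intensity of each gene in the 4 lymphoma (red, left) and 4 wild type (blue, right) arrays, numbered by replicate, for the brightest feature of the gene or, for Tubb3, the median of its 10 features; bars are mean ± SD (n = 4) and the grey band spans the background bounds of 7.17 to 7.45. Lymphoma values lie above all wild type values for Tppp, Tppp3, Eml1, Tubb6 and Tubb3, and wild type 1 lies near lymphoma for Tubb6 at 13.27.

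The 2 EML genes gave different values. On its brightest feature Eml1, whose loss in mouse leaves neurons misplaced under the cortex, had 11.54, 10.23, 9.95 and 10.31 in lymphoma 1 to 4, against 7.53, 6.38, 6.29 and 6.35 in wild type 1 to 4. The groups lay far apart, lymphoma 1 was the brightest, and the controls other than wild type 1 were at background. The means were 10.51 ± 0.70 in lymphoma and 6.64 ± 0.60 in wild type (SD, n = 4 each), a log2 difference of 3.87 ± 0.38 (SE) in the values as read. With the 3 controls at background held at their bound, Eml1 was at least 8.80-fold higher in lymphoma, and at least 9.13-fold higher without wild type 1. The other Eml1 feature was at background on all 8 arrays and gives no fold, so the difference rests on 1 of 2 features.

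Eml4, which encodes a related microtubule-binding protein, had 9.59, 9.05, 10.16 and 9.99 in lymphoma 1 to 4, against 9.40, 10.34, 9.39 and 9.65 in wild type 1 to 4, on its brightest feature. The groups overlapped throughout, and both averaged 9.70. The brightest Eml4 feature differed by -0.56 within slide 1 and by 0.56 within slide 2. A dimmer Eml4 feature averaged 7.42 ± 0.06 in lymphoma and 7.92 ± 0.61 in wild type (SD, n = 4 each), close to background, and it was the only one of the 26 features with all lymphoma values below all wild type values. The third Eml4 feature was at background on all arrays.

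Among the beta tubulins the widest difference was in Tubb6, the class V isotype, which in other cells is known to disrupt the microtubule array when it is overproduced. Tubb6 had 13.76, 14.13, 13.58 and 13.70 in lymphoma 1 to 4, against 13.27, 10.33, 10.26 and 9.95 in wild type 1 to 4. Wild type 1 reached nearly the lymphoma level, and the other controls lay together well above background. Tubb6 averaged 13.79 ± 0.24 in lymphoma and 10.95 ± 1.56 in wild type (SD, n = 4 each), a log2 difference of 2.84 ± 0.59 (SE), or 7.18-fold. Without wild type 1 it was 12.3-fold. Its second feature was at background on all 8 arrays.

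Tubb2a, a class II isotype abundant in brain, had 3 features that disagreed in size. On the brightest, Tubb2a had 13.36, 12.92, 14.47 and 13.90 in lymphoma 1 to 4, against 13.58, 12.40, 13.15 and 12.19 in wild type 1 to 4, with overlapping groups and a log2 difference of 0.83 ± 0.38 (SE). On the second, it had 12.26, 12.45, 13.44 and 13.03 in lymphoma and 11.04, 10.15, 11.57 and 11.64 in wild type, in the same order of arrays. There the groups did not overlap, wild type 1 lay among the other controls, and the log2 difference was 1.69 ± 0.36 (SE), or 3.24-fold. The third averaged 8.17 in lymphoma and 7.43 in wild type, close to background, and wild type 2 was at background. It gave a log2 difference of 0.74 ± 0.29 (SE) in the values as read. Probe sequences were not used here, so whether a feature also reads a near-identical tubulin gene such as Tubb2b was not tested.

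Tubb2b, its close paralog and likewise a neuronal class II isotype, had 7.88, 8.73, 9.25 and 9.79 in lymphoma 1 to 4, against 8.67, 8.24, 7.70 and 7.70 in wild type 1 to 4. Lymphoma 1 lay among the controls, and lymphoma 3 and 4 were the brightest. The log2 difference was 0.84 ± 0.38 (SE) over all arrays, -0.15 within slide 1 and 1.82 within slide 2. For the brightest Tubb2a feature the values were 0.15 within slide 1 and 1.51 within slide 2.

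Tubb3, the class III isotype used as a marker of neurons, had 10 features. They are listed for the same transcript and were read on the same arrays, so they are not independent. All 10 averaged higher in lymphoma over the 8 arrays, with log2 differences between 0.13 and 1.08, and in 7 of them the groups did not overlap. The smallest difference was that of the brightest feature, which read 10.43 in wild type 4, where the median of the 10 Tubb3 features was 8.03. Without wild type 4 the difference of that feature was 0.69, and it was -0.24 without wild type 3 and -0.01 without wild type 1, so that no direction can be given for it. A second feature read 9.39 on that array, and the 8 others were at most 8.31. As the median of its features, Tubb3 had 8.92, 8.56, 9.36 and 8.83 in lymphoma 1 to 4, against 8.25, 8.01, 7.90 and 8.03 in wild type 1 to 4. These values did not overlap and differed by 0.87, or 1.83-fold, and by 0.94 without wild type 1. Of 10 neuron markers measured, 4 were at background on all 8 arrays and 0 passed the test. The summed intensity of the 10 was between 1075 and 4697 in lymphoma and between 827 and 1459 in wild type. In lymphoma 4 it took in Snap25 and Nefm, which stood apart there and were at background on all other arrays.

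**Figure D2:**
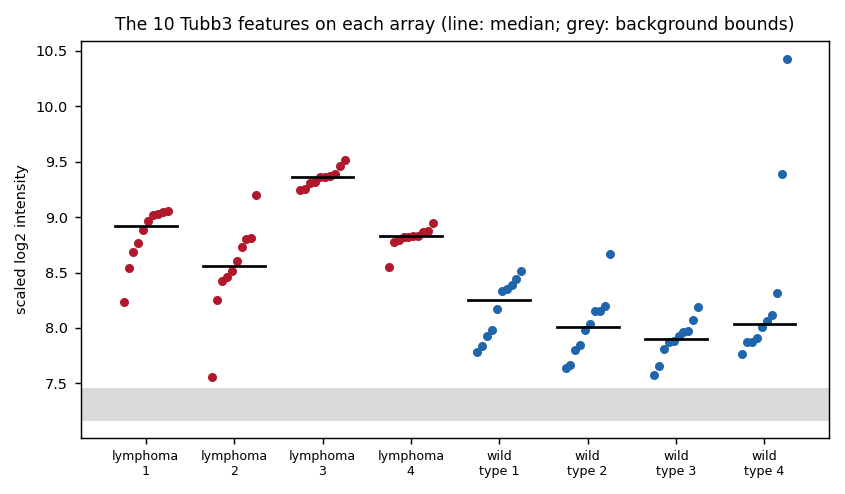
Scaled log2 intensity of the 10 Tubb3 features on each lymphoma (red) and wild type (blue) array, sorted within an array; lines are medians and the grey band spans the background bounds. The medians are 8.56 or more in lymphoma and 8.25 or less in wild type, and 2 features of wild type 4, at 10.43 and 9.39, stand apart from the other 8.

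Tubb5, a beta tubulin that most cell types express, had 14.95, 14.66, 14.51 and 14.09 in lymphoma 1 to 4, against 15.16, 14.99, 13.83 and 14.19 in wild type 1 to 4, on its brightest feature. The groups covered the same range. The log2 differences of its 2 features were 0.01 ± 0.32 and -0.04 ± 0.26 (SE), and the first becomes -0.06 with the values as deposited, so that no direction can be given. Tuba1a, an alpha tubulin of neurons and many other cells, had 11.79, 12.79, 13.60 and 12.96 in lymphoma 1 to 4, against 12.39, 13.67, 12.88 and 13.39 in wild type 1 to 4. The groups overlapped, and the difference was -0.29 ± 0.38 (SE), with -0.74 within slide 1 and 0.15 within slide 2.

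Over the 26 features, 23 were above background on at least 1 array and 20 of these averaged higher in lymphoma, among them Eml4 and Tubb5 features with no settled direction, and 18 with the values as deposited. The median log2 difference of the 10 genes on their brightest features was 0.83, and 1.06 without wild type 1, while that of all 19087 genes was 0.06. Groups did not overlap in 13 of the 26 features, 12 of them higher in lymphoma, and in 9.25% of all features, 4.44% higher. All 10 Tubb3 features are among the 20 and 7 are among the 12, and they are not independent. Since the comparison took part in the choice of genes, nothing is read from these counts.

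**Figure D3:**
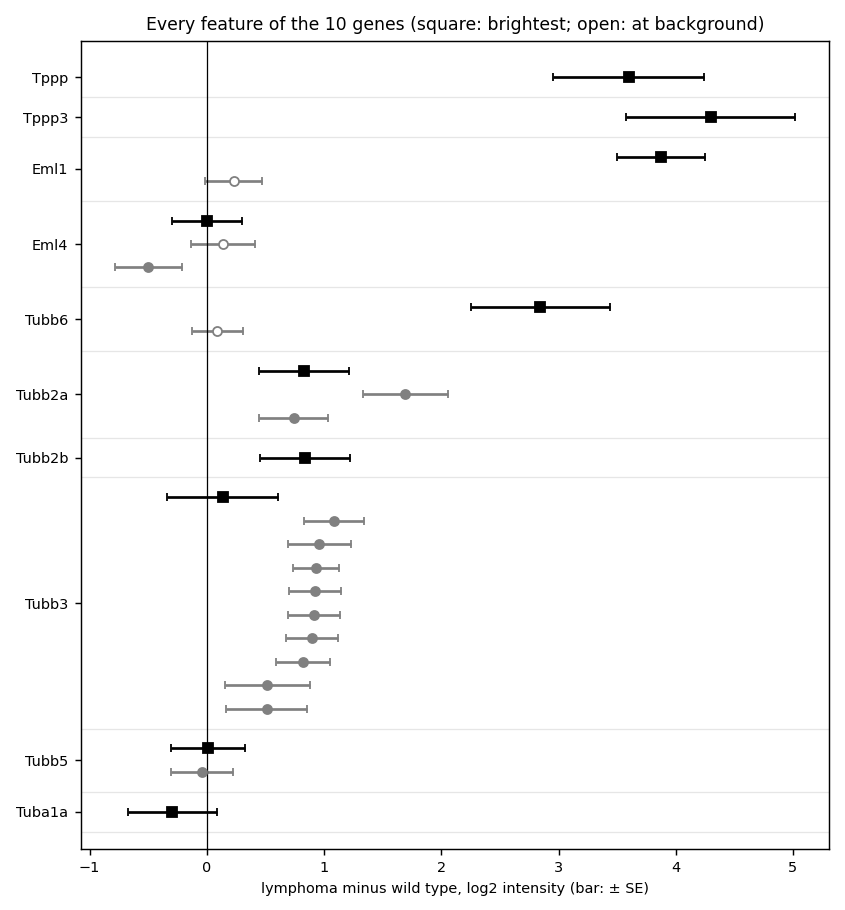
Log2 difference between lymphoma and wild type for every one of the 26 features, with bars of ± 1 SE; squares are the brightest feature of a gene and open symbols are features at background on all 8 arrays. Tppp, Tppp3, Eml1 and Tubb6 lie between 2.84 and 4.30 on their brightest feature, the Tubb3 features between 0.13 and 1.08, and Tubb5 around 0.

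Likeness of profile was measured as the mean absolute difference over the 8 arrays between scaled log2 values centred on each gene's own mean, among 17690 other genes. All of these profiles carry the same group difference and the same wild type 1 array. The closest to Tppp were Krt18, a keratin of simple epithelia (0.26), S100a6, a calcium-binding protein (0.28), and Ankrd13b (0.35). Tubb6 was the 7th closest (0.40) and Tppp3 the 8th (0.43). The closest to Tppp3 were Tppp (0.43), Zbtb32, a zinc finger repressor (0.47), and Phyhd1 (0.48). The closest to Eml1 were Gnb3, a G protein beta subunit (0.31), Echdc3 (0.33) and Rab3b, a small GTPase of secretory vesicles (0.38). Eml1 ranked 33rd from Tppp and 30th from Tppp3. On their brightest features Tubb3, Tubb5, Tuba1a and Eml4 ranked 4236th or farther from each of Tppp, Tppp3 and Eml1.

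**Figure D4:**
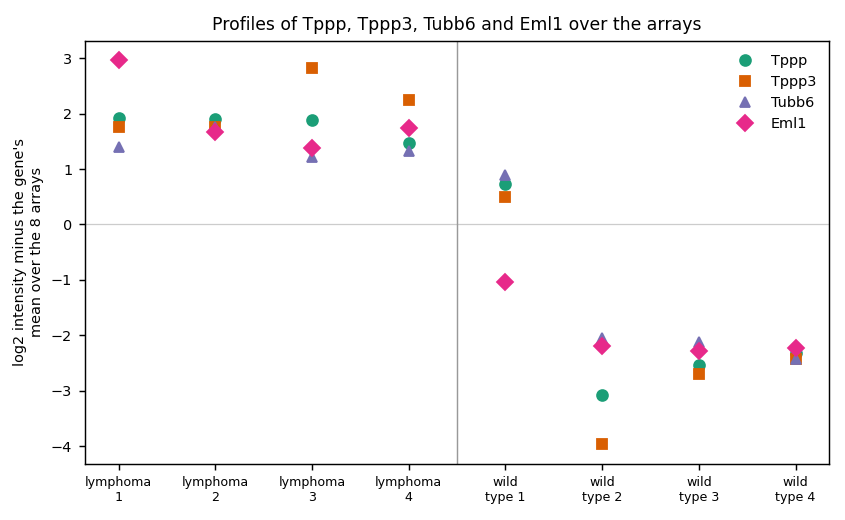
Log2 intensity minus the gene's own mean over the 8 arrays, for the brightest features of Tppp, Tppp3, Tubb6 and Eml1, with lymphoma arrays left of the line and wild type arrays right of it. Wild type 1 lies above the other controls for all 4 genes. For Eml1 its value before centring was 7.53, near the background bound, which is not drawn.

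The slides allow a test that played no part in the choice of the genes. With the group as a second term, 0 of the 26 features differed between slide 2 and slide 1 in limma (lowest adjusted p 0.351, 3 at an unadjusted p under 0.05). Of all 33709 features 2 passed, or 0.00593%, and 3725 had an unadjusted p under 0.05. Whether the lymphoma against wild type difference itself differed between the slides was tested as an interaction. It passed for 0 of the 26 features (lowest adjusted p 0.480, for Tubb2b, and 2 at an unadjusted p under 0.05) and for 0% of all 33709, with 2552 at an unadjusted p under 0.05 and 2 calls with trend and robust settings. For Tubb2b the differences on the slides lay 1.98 ± 0.51 (SE) apart on the log2 scale. Without wild type 1, wild type 2 was the only control on slide 1, so the difference on that slide rests on its value. The interaction was then 1.58 for the brightest Eml4 feature and 1.76 for Tubb2b. On that Eml4 feature wild type 2 read 10.34, the highest value of any array. This fit cannot tell a slide effect from a deviation of wild type 2, so its calls are not given.

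The genes around these members were taken from lists by role. Of 98 other tubulin and microtubule genes measured, 1 fell in lymphoma and 0 rose at an adjusted p under 0.05 in limma. Of all genes 2.09% passed, with 1.27% lower and 0.817% higher. An unadjusted p under 0.05 was found for 11 of the 98, and for 4900 of all 33709 features. The median log2 difference of the 98 was 0.09, where that of all genes was 0.06. The gene that fell was Dclk2, a doublecortin-like kinase that binds microtubules. Dclk2 had 8.25, 8.55, 8.78 and 8.93 in lymphoma 1 to 4, against 9.54, 11.72, 10.84 and 10.99 in wild type 1 to 4. Here too the groups did not overlap and wild type 1 was the control nearest to lymphoma. The log2 difference was -2.14 ± 0.39 (SE) with an adjusted p of 0.0241 in the fit of all arrays, and -2.55 when wild type 1 was left out. The call ended when any one lymphoma array, wild type 3 or wild type 4 was left out (log2 differences between -2.25 and -2.02, adjusted p up to 0.0869) and within slide 1 alone (-2.23, adjusted p 0.708).

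None of the other alpha tubulins (5 measured), the other beta tubulins (2), the gamma, delta and epsilon tubulins with the gamma tubulin ring complex (12), the other EML genes (4), the folding cofactors with prefoldin (14), the tubulin modifying enzymes (20) or the destabilizers and severing enzymes (15) passed the test, and Dclk2 was the 1 call among 26 stabilizers and lattice proteins. The alpha tubulin with the widest difference was Tuba1c, at 0.49 (adjusted p 0.649), and the beta tubulin was Tubb4b, at 0.80 (adjusted p 0.358). Tubg2, a gamma tubulin, differed by -0.59 (adjusted p 0.408), Eml5 by -0.83 (adjusted p 0.146) and Pfdn5, a prefoldin subunit, by -0.92 (adjusted p 0.0918). Fignl1, an ATPase related to the severing enzyme fidgetin, differed by 0.82 (adjusted p 0.161). Vash2, which removes the last tyrosine of alpha tubulin, averaged 2.11 higher in lymphoma (adjusted p 0.523), a difference that rests on 1 array, with 14.24, 7.15, 6.28 and 6.31 in lymphoma 1 to 4 and 6.39, 6.36, 6.25 and 6.55 in wild type 1 to 4. Of these 8 arrays only lymphoma 1 was above background.

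Without wild type 1 the count in these lists was 3 higher and 4 lower, against 8.15% of all genes in that fit, 4.28% higher and 3.87% lower. Tubb4b (1.21, adjusted p 0.0143), Map7d1 (1.13, adjusted p 0.0149) and Fignl1 (0.98, adjusted p 0.0476) were higher. Dclk2, Pfdn5 (-1.10, adjusted p 0.0133), Eml5 (-1.01, adjusted p 0.0294) and Mtus1 (-0.94, adjusted p 0.0339) were lower, and Mtus1 was at background on all 4 lymphoma arrays. Map7d1 and Mtus1 were singled out after their values were seen. Differences are apt to widen once a control that resembles lymphoma is dropped.

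**Figure D5:**
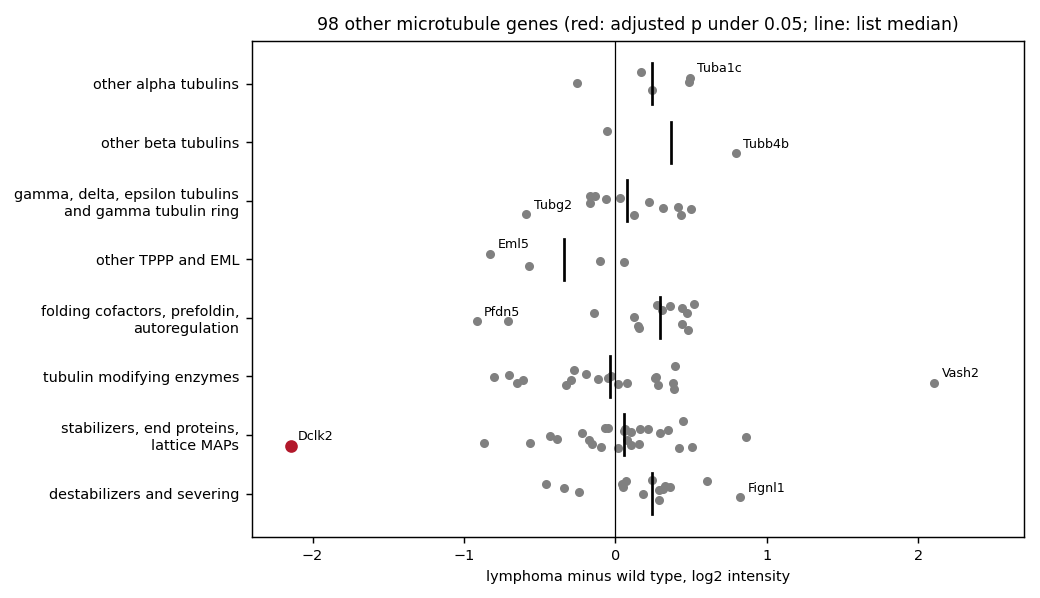
Log2 difference between lymphoma and wild type for 98 other tubulin and microtubule genes by list; each point is a gene on its brightest feature, vertical lines are list medians and red marks an adjusted p under 0.05. Dclk2 at -2.14 is the 1 call, and Vash2 at 2.11 rests on 1 lymphoma array.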

How the data were processed

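The values deposited by the authors are log2 intensities of 45220 features from 8 Agilent mouse arrays of 1 color, with an array per mouse. Per the labels, polyA RNA was labelled with Cy3 by the Agilent low RNA protocol. For the scanner, background correction and normalization nothing is stated (not given in the sources used here). Column medians were 7.04 to 7.26, features were not centred, and the scale factor of each array stays unknown.

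Groups came from the sample labels. The platform annotation listed a gene for 33709 features, of which 33653 had 1 symbol, 56 had several and were not named, and 11511 further features had none. Gene identifiers of 33517 matched RefSeq. Arrays were aligned at the 75th percentile of their listed features. Group differences were fitted with limma 3.58.1 (R 4.3.3; lmFit and eBayes, two-sided, no covariate), p-values were adjusted by Benjamini and Hochberg over the 33709 features, and calls were made at an adjusted p under 0.05. The procedure was tested on simulated data. A gene is represented by the feature whose mean over the 8 arrays is highest. Between 50.2% and 52.9% of listed features exceeded the background bound per array, and no feature of the 10 genes reached 80% of an array's highest intensity. The 10 genes, the lists of other microtubule genes and markers and the fits were chosen with earlier results of these data known. Named genes are the 10 members, per list up to 3 calls with the widest change and 1 in the opposite direction or, with no call, the widest difference, and the 3 genes most like Tppp, Tppp3 and Eml1 in profile. Alternatives were 3 other scalings, a filter on dim features, a floor at the 5th percentile, trend and robust estimation, all features of the table, the slide or the replicate number as a block, each slide alone, the mean or median of a gene's features, and leaving out each array. The labels describe separate mice without further detail, and p-values measure the spread between these samples.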

Additional observations from a re-analysis of the deposited data

Results flagged for a closer look

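Each group's 4 arrays were tested for 1 far value, for 26 features of the 10 genes and for 8 other microtubule genes. Of these 68 sets 6 had one. The rule flags about 1 in 20 independent sets by chance, but that rate is no reference here. The 10 Tubb3 features are not independent, and wild type 1 recurs. The 8 other genes were named for the width of their difference, which for Vash2 came from the flagged array itself. Wild type 1 stood apart from the other controls at 7.53 for Eml1 on its brightest feature, at 13.27 for Tubb6 and at 11.54 for Tubb4b. Wild type 4 stood apart at 9.39 on 1 Tubb3 feature. Lymphoma 4 stood apart from the other lymphomas at 10.95 for Tppp, where the others lay between 11.37 and 11.41. Lymphoma 1 stood apart at 14.24 for Vash2, which was at background on the other 7 arrays.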

How the results depend on the processing

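The lymphoma against wild type fit called 557 features. Leaving out 1 array gave 84 to 2317, the highest without wild type 1, with 84, 142, 148 and 234 for the omission of lymphoma 4, 3, 1 and 2 and 88, 95 and 306 for that of wild type 4, 3 and 2. Slide 1 alone gave 0 (1761 at an unadjusted p under 0.05) and slide 2 alone 1949. The share of calls that were higher was 39.7%, against 26.9% with the values as deposited (158 higher, 429 lower). Of the other microtubule genes, 1 was called, 0 to 7 with 1 array left out, 0 within slide 1 alone (4 at an unadjusted p under 0.05) and 3 within slide 2 alone. The slide test called 2 features, 1 with values as deposited, median scaling, quantile normalization, the dim filter or the floor, 4 over all features of the table, and 0 to 3 with 1 array left out. The interaction test called 0, 2 with values as deposited, quantile normalization or trend and robust estimation, and 0 to 205 with 1 array left out, 205 without wild type 1 and 60 without wild type 2. The causes were not tested. The sign turned for Tuba1c when wild type 2 was left out (-0.0034 to 0.85 over the single arrays left out) and for Vash2 within slide 2 alone (-0.11).

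Of 210 values of the 10 genes under the alternatives, 198 lay within 1 SD of the reported difference, an SD pooled within the groups. The other 12 came from single slides for Eml4, Tubb2a and Tubb2b and from averaging features: with the mean of its features Eml1 differed by 2.05 and Tubb6 by 1.47, each average taking in a feature at background. The median of features was chosen after the data were seen. The count of 198 says little. The dim filter, the floor, trend and robust estimation, all features of the table and the slide or replicate block left every difference unchanged. For genes with a single feature the mean or median could not change it. A value within 1 SD could turn sign, as for Tuba1a without lymphoma 1 (0.04, against -0.29). It could also differ in size, as for Tubb3 with the median of its features (0.87, against 0.13).

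Both groups number their replicates 1 to 4 in the labels. Deviations of same-numbered arrays from their group means correlated at 0.18, -0.04, 0.13 and -0.02, not all above 0.1, and lymphoma 2 and 4 correlated best with controls of another number, so the numbers were not taken as pairs, although same-numbered arrays also lay on the same slide. A replicate block gave 713 features and 1 other microtubule gene. The table carries no background or saturation flags, so a level near the bound of 7.17 to 7.45 has no measured fold.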

Other observations

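Of the 10 neuron markers, Snap25 and Nefm stood apart in lymphoma 4. Snap25, a SNARE protein of synaptic vesicle release, had 6.58, 6.72, 6.48 and 11.00 in lymphoma 1 to 4, against 6.15, 7.11, 5.96 and 6.41 in wild type 1 to 4. Nefm, the medium neurofilament subunit, had 6.62, 6.53, 6.78 and 10.65 in lymphoma 1 to 4, against 6.71, 7.16, 6.13 and 6.61 in wild type 1 to 4. Both were at background on the 7 other arrays. Of the 8 other neuron markers, Rbfox3 was above background in lymphoma 4 alone, at 7.75, while Elavl3 and Gap43 were at background there and lowest among the lymphomas. Lymphoma 4 was also the brightest array for Tubb2b, at 9.79, while for Tubb3 the brightest was lymphoma 3. Snap25, Nefm, Rbfox3, Elavl3 and Gap43 were singled out after their values were seen.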
